A study of Mus musculus with 10 samples.

Results

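SET is a histone-binding protein of the nucleosome assembly family that is made as 2 isoforms, SETa and SETb, which differ at their amino-terminal end. It binds core histones, is a subunit of the inhibitor of acetyltransferases complex and inhibits protein phosphatase 2A. The comparison described here places HA-tagged SETa beside HA-tagged SETb in mouse embryonic stem cells that kept their own SET. It rests on 4 chromatin immunoprecipitation libraries of a series of 10 samples, chosen by their labels: replicates 1 and 2 of the cells labelled SETa-HA and replicates 1 and 2 of those labelled SETb-HA. The 4 libraries gave 5477 merged regions outside an 18 Mb segment of chromosome 6 (chr6:118213937-135565814, from its first to its last region), which was kept apart because SETa peaks fill it. In all, 66857 peaks were listed in the 8 libraries of the series with a peak list.

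Both groups were KH2 cells, an embryonic stem cell line built to take up 1 doxycycline-inducible transgene at a fixed site, and carried pBS31-HA-SETa or pBS31-HA-SETb; their genotype is given as overexpression, with no SET KO. All 4 received 1 µg/ml doxycycline for 24 h. After removal of the feeder cells they were crosslinked with 2 mM DSG, which joins protein to protein, for 45 min and with 1% formaldehyde for 10 min, and were precipitated with an antibody to HA. The reference set was the addback cells of the same series, SET KO cells with the same transgenes and the same treatment. Each isoform was carried by a cell line of its own, so the isoform and the line cannot be told apart. The series also holds 2 HA libraries of SET KO cells without doxycycline, which are not among the 8 libraries with a peak list. Whether they served as the control is not given in the sources used here. No separate level of signal without HA stands beside any value. Nothing in the labels says that replicates came from separate cultures, and p-values measure the spread between these libraries only. Peak positions give no expression values, so the cell type could not be checked against its markers.

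The sequence of promoter windows from RefSeq (GRCm38.p6, 300 bases each, most of them before the gene's start) is shown for 3 genes picked with their values known, as examples of regions near a gene start, where few peaks lie: a tandem repeat and a Y-linked sequence found in all 4 libraries, and a histone gene with a peak in both SETb libraries and SETa replicate 2. The first is Gm40237, a long noncoding RNA gene, with its window at chr4:118547156-118547455 on the plus strand inside a region of 1699 bp. All bases of this window lie inside the annotated gene, which spans chr4:118547139-118548256. The capitals mark its first 44 bases, the length after which the sequence comes back.
Gm40237: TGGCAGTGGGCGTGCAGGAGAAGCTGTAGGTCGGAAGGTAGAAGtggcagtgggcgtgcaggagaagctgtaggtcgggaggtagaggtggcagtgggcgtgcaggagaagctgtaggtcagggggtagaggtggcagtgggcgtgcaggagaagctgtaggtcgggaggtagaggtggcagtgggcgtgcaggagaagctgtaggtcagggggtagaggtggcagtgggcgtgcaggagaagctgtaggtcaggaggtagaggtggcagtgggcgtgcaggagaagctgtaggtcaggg
The second is LOC108168645, a noncoding gene of the Y cluster, with its window at chrY:90843883-90844182 on the minus strand. The capitals mark the 267 bases that lie inside a region of all 4 libraries.
LOC108168645: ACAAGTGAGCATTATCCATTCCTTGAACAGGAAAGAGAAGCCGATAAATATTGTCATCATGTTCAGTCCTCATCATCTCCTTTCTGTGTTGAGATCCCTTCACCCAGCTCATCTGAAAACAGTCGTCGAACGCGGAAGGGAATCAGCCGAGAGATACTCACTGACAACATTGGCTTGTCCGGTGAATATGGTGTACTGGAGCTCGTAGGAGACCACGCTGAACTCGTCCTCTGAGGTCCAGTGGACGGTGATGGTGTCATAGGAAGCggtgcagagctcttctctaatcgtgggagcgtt
The third is H2ac13, a replication-dependent histone H2A gene, with its window at chr13:21716162-21716461 on the plus strand. The capitals mark the 4 places with the letters CCAAT or, on the other strand, ATTGG. The region begins at the last base of this window, so 1 of its 300 bases and none of the marked letters lie in it.
H2ac13: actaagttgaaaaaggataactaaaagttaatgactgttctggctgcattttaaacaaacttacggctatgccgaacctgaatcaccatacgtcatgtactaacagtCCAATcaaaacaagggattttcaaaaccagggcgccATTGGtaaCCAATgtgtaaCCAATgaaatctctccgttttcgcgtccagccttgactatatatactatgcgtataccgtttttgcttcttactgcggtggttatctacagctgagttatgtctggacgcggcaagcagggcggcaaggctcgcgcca

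In the Gm40237 window 97.6% of bases equalled the base that far on at the best shift, and 44 bp was the shortest shift within 5 points of that share. Such an identity of at least 80% at a shift of 10 to 100 bp was met by 15 of the 28762 windows outside the segment (0.0522%). Of 7 windows that overlap a region found in all 4 libraries, 1 was of this kind. The letters CCAAT or ATTGG occur in 37.4% of all 29120 windows and in 52 of the 60 windows of replication-dependent histone genes. These are descriptions of the letters and not of a binding site.

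A peak is a stretch where the authors' peak caller found more fragments than in the control, and its fold is the signal at its summit over the local background. The number of peaks was close between isoforms and far apart between replicates. Outside the segment SETa replicates 1 and 2 had 1470 and 2898 peaks, and SETb replicates 1 and 2 had 1294 and 2744. Replicate 2 of each isoform thus had about the same number, and the groups overlapped. On the log2 scale SETa exceeded SETb by 0.13, against a pooled replicate SD of 0.73 (n = 2 per group, two-sided exact permutation test p = 0.667). With 4 libraries the test has 6 arrangements and cannot go below 0.33. Without SETa replicate 2 the difference was -0.36 and without SETb replicate 1 it was -0.41.

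**Figure D1:**
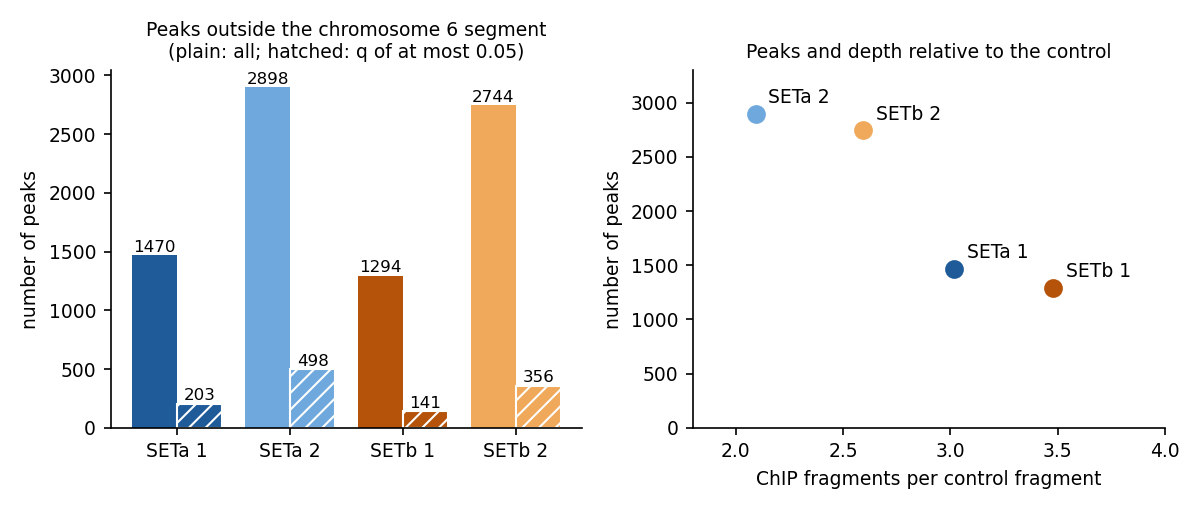
Left, the number of peaks outside the chromosome 6 segment in each library (plain bars, all peaks; hatched bars, peaks with a q of at most 0.05). Right, the same number against ChIP fragments per control fragment; the libraries at 2.09 and 2.59 hold 2898 and 2744 peaks, those at 3.02 and 3.48 hold 1470 and 1294.

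Most of these peaks were weak. Only 203 and 498 of the SETa peaks and 141 and 356 of the SETb peaks had a q, the peak caller's p adjusted for multiple testing, of at most 0.05. The fragments behind a summit could be worked out from the fold and the p of 98.7% to 99.8% of peaks per library, and the median summit held 41 and 28 fragments in SETa and 47 and 35 in SETb. The same calculation gave 3.02 and 2.09 ChIP fragments per control fragment for SETa and 3.48 and 2.59 for SETb. The 2 libraries with fewer ChIP fragments per control fragment were those with more peaks, and the part of depth in the peak numbers was not tested. At 59 of 59 summits listed at the same base in a pair of libraries the recovered background was equal within 0.001 fragments, as it is when lists are set against the same control.

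To compare lists of equal length, the strongest 1294 peaks of each library were taken by p. Few of them lay at gene ends. Gene ends, taken as 1 kb to each side of a gene's first and last base, held 7.26% and 8.58% of these summits in SETa and 7.11% and 12.3% in SETb. After every summit was moved by 20 kb the shares were 6.53% and 5.53% in SETa and 5.76% and 7.88% in SETb, so in each library gene ends held slightly more summits than places 20 kb away. In the addback libraries the shares at the listed positions were between 64.2% and 71.6%. The isoforms differed by -1.78 percentage points (SETa minus SETb), less than the replicate SD of 2.67 (n = 2 per group, exact permutation p = 1). Without SETb replicate 2 the difference was 0.811 points. Ends of protein-coding genes held 1.47% and 4.33% in SETa and 3.48% and 7.88% in SETb, and the groups overlapped here too.

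Most of the strongest summits were outside genes and away from their ends, 64.5% and 63.9% in SETa and 63.4% and 58.2% in SETb. The groups did not overlap (difference 3.44 points, replicate SD 2.61, n = 2 per group, exact permutation p = 0.33). A further 28.2% and 27.5% in SETa and 29.5% and 29.5% in SETb were inside a gene and away from its ends, and these groups did not overlap either (difference -1.66 points, replicate SD 0.348, n = 2 per group, exact permutation p = 0.33). The median widths of the strongest peaks were 261 and 274 bp in SETa and 271.5 and 292 bp in SETb. The mean of these medians differed by -14.2 bp (SETa minus SETb), and the groups overlapped (n = 2 per group, exact permutation p = 0.667).

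The sex chromosomes held more of the SETa peaks. Chromosomes X and Y had 19.8% and 19.1% of the strongest peaks in SETa and 17.9% and 14.6% in SETb, so that both SETa libraries stood above both SETb libraries. The difference of 3.21 points was larger than the replicate SD of 1.66 points and gave the smallest p that 4 libraries allow (n = 2 per group, exact permutation p = 0.33). It lay on X, with 17.5% and 15.8% in SETa against 14.2% and 12.0% in SETb, and not on Y, with 2.32% and 3.25% against 3.63% and 2.63%. It rested on 2 clusters of X peaks without an annotated gene, described below, which held 51 and 55 of the strongest peaks in SETa and 5 and 6 in SETb. Without the peaks of these clusters the shares were 16.5% and 15.5% in SETa and 17.5% and 14.2% in SETb, and the groups overlapped. Among peaks with a q of at most 0.05 the shares were 36.9% and 29.1% in SETa and 44.7% and 24.7% in SETb, and overlapped as well.

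Peaks also gathered in clusters, defined as 5 or more regions found in at least 2 libraries, each within 100 kb of the next. There were 16 clusters, 5 of them on X or Y. Of the strongest peaks, 14.7% and 13.5% in SETa and 12.6% and 11.2% in SETb fell in a cluster, and the groups did not overlap (difference 2.20 points, replicate SD 0.905, n = 2 per group, exact permutation p = 0.33). The clusters were defined by these same peaks, so this p is no support for a difference. In the 2 X clusters without an annotated gene, 21 of 26 and 12 of 21 regions were in both SETa libraries and no SETb library. The direction turned, to -1.32 points, without the same 2 X clusters, to -0.27 points when peaks were ranked by fold, and to -3.76 points among peaks with a q of at most 0.05.

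Replicates shared little more than isoforms did. The strongest lists of the SETa replicates overlapped by 33.7% and those of the SETb replicates by 42.1%, while the 4 pairs of a SETa with a SETb library overlapped by 29.9% to 34.9%. The SETa replicates were therefore no more alike than SETa replicate 1 and SETb replicate 1, at 34.9%. Replicate pairs exceeded isoform pairs by 5.35 points on average. This was the highest of the 3 ways to divide the libraries in pairs, the others giving -1.49 and -3.86 (one-sided exact permutation p = 0.33, the smallest possible). Without SETb replicate 2 the value was -0.56 points.

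Of the 5477 merged regions, 3822 were found in 1 library. There were 298 regions in all 4 libraries (5.44% of regions), 199 in both SETa libraries and no SETb library (3.63%) and 192 in both SETb libraries and no SETa library (3.51%). Regions found in a mixed pair of libraries and no other numbered 42 for both replicates 1, 297 for both replicates 2, 101 for SETa 1 with SETb 2 and 94 for SETa 2 with SETb 1. The 2 isoform pairs thus held more regions of their own than 3 of the 4 mixed pairs and fewer than the pair of replicates 2, which were the libraries with the most peaks. At a q of at most 0.05 the counts were 59 in all 4 libraries, 42 for SETa and 11 for SETb. With a single library left out, the counts for 1 isoform were between 256 and 1790 for SETa and between 256 and 1613 for SETb. A region must then be found in or missing from fewer libraries, so a rise follows from the rule itself.

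The highest peaks of both isoforms lay in the same places, on chromosome 10 and in a cluster on X. First came 3 regions at the start of the assembled part of chromosome 10, next to the pseudogenes Gm30674 and Gm3318 and outside any annotated gene. At chr10:3111237-3115413 the fold was 15.2 and 14.4 in SETa and 13.4 and 14.3 in SETb, with 202, 133, 205 and 164 fragments at the summits. At chr10:3115961-3117252 it was 14.2 and 15.3 in SETa and 12.6 and 13.5 in SETb, and at chr10:3109385-3110521 it was 14.5 and 13.3 in SETa and 12.5 and 12.3 in SETb. In these 3 regions no addback library had a peak, and the control background was at its lowest level. Both IDR lists, which hold the peaks that pass the authors' comparison of replicates, rank the first and the second of these regions at the top, and by p the next 3 peaks of each list lay in that X cluster.

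**Figure D2:**
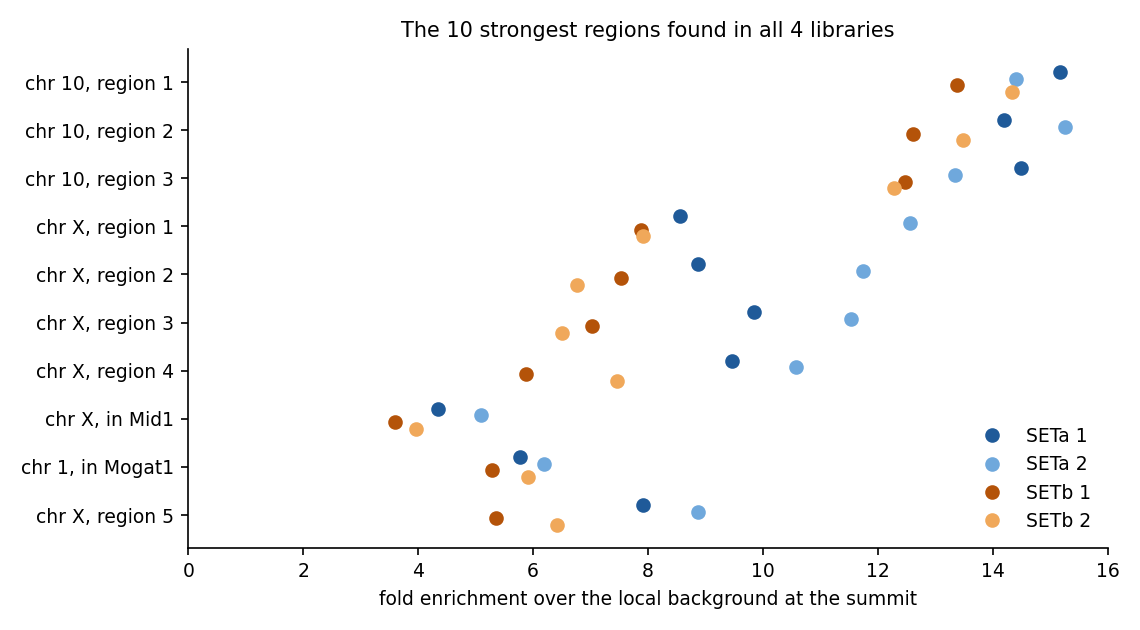
Fold enrichment at the summit of the 10 regions of all 4 libraries with the highest lowest −log10 p, 1 point per library. The chromosome 10 regions lie between 12.3 and 15.3 in every library, and in the 5 numbered X regions both SETa points lie to the right of both SETb points.

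A cluster of 16 regions at chrX:126590635-126778133, which holds the pseudogene Gm7746 and no other annotated gene, came next and gave the clearest difference in fold. Of these, 14 were found in all 4 libraries. At chrX:126693093-126693842 the fold was 8.88 and 11.7 in SETa and 7.54 and 6.77 in SETb, and at chrX:126763525-126773978 it was 9.84 and 11.5 in SETa and 7.02 and 6.51 in SETb. Both SETa folds were above both SETb folds in 13 of the 14 shared regions, and the median difference was 0.59 on the log2 scale, against a median gap of 0.26 between replicates. The number of peaks went the other way, with 21 and 16 in SETa and 32 and 34 in SETb, while the peaks covered 31.4 and 34.0 kb in SETa and 24.2 and 24.7 kb in SETb. One further region, chrX:126694435-126694762, was found in SETa alone, with folds of 5.77 and 6.94. The 14 regions are neighbours in the same 4 libraries and no replicates of one another, and the difference was not tested.

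Over the 298 shared regions the isoforms were close. Both SETa folds were above both SETb folds in 63 (21.1%) and both SETb folds above both SETa folds in 42 (14.1%). The median difference was 0.00075 on the log2 scale. Inside clusters SETa stood above in 26 and SETb in 7 of 64 regions, of which the X cluster with Gm7746 gave 13 of the 26. Outside clusters SETa stood above in 37 and SETb in 35 of 234.

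Of the other regions with the highest values in all 4 libraries, one lay inside Mogat1 at chr1:78573672-78574653, 13878 bp from the nearest gene end; Mogat1 encodes an acyltransferase of triglyceride synthesis. Its fold was 5.77 and 6.20 in SETa and 5.29 and 5.90 in SETb. Another lay in Mid1, a ubiquitin ligase gene that spans the boundary of the pseudoautosomal region, at chrX:169978218-169989136, with folds of 4.35 and 5.10 in SETa and 3.60 and 3.96 in SETb. All 4 addback libraries had a peak there too.

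**Figure D3:**
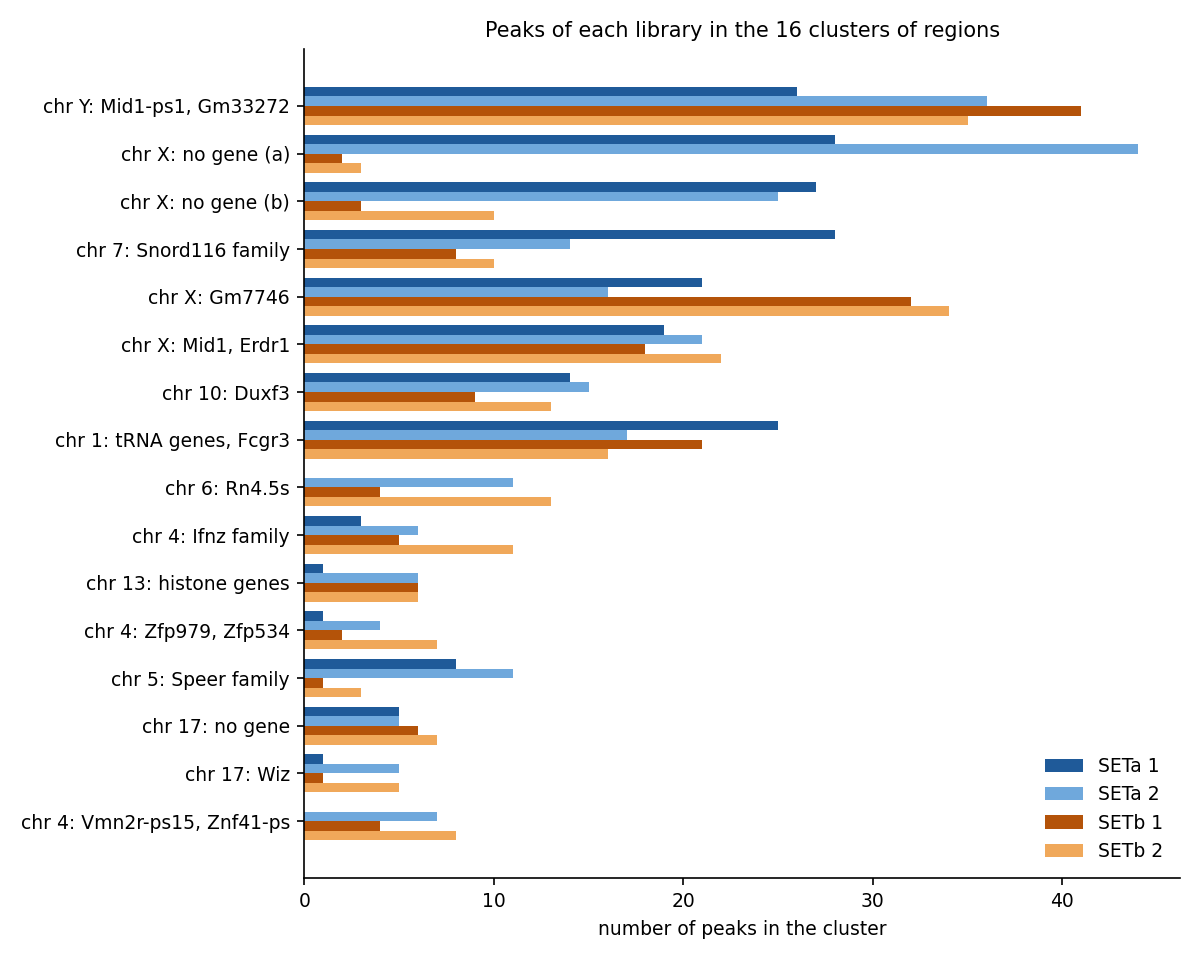
Number of peaks of each library in the 16 clusters, ordered by the number of regions; SETa in blue, SETb in orange. The 2 X clusters without a gene hold 25 to 44 peaks in SETa and 2 to 10 in SETb, while the Y cluster holds 26 to 41 in every library.

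The clusters with the most regions differed in which isoform covered more of them. The largest, chrY:90738005-90844630, with the pseudogene Mid1-ps1 and the noncoding gene Gm33272, had 26 and 36 peaks in SETa and 41 and 35 in SETb, and 18 of its 33 regions were in all 4 libraries. Its peaks covered 18.1 and 27.6 kb in SETa and 34.9 and 40.7 kb in SETb. Its partner on X, chrX:169974689-170022553, with Mid1 and Erdr1, had 19 and 21 in SETa and 18 and 22 in SETb, covering 17.5 and 23.6 kb in SETa and 24.1 and 30.4 kb in SETb. In both, each SETb library covered more than each SETa library, and 5 regions on Y and 3 on X were in both SETb libraries alone, against 0 and 0 in both SETa libraries alone. In both, the control background was several times its lowest level, at a median of 4.03 to 4.66 times on Y and 2.01 to 5.95 times on X, and addback libraries had 27 to 50 peaks.

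The 2 X clusters without an annotated gene were SETa-rich. At chrX:94876838-94975025 there were 28 and 44 peaks in SETa and 2 and 3 in SETb, covering 10.7 and 18.7 kb in SETa and 0.432 and 1.04 kb in SETb. Of its 26 regions 21 were in both SETa libraries and no SETb library and 0 were in all 4. At chrX:123045590-123075390 there were 27 and 25 peaks in SETa and 3 and 10 in SETb, covering 14.3 and 23.8 kb in SETa and 1.35 and 3.60 kb in SETb, and 12 of its 21 regions were in both SETa libraries alone. The control background differed between the clusters, at about 3 times its lowest level in the first (medians of 3.02 and 2.99 at the SETa peaks) and at its lowest level in the second. Addback libraries had 6, 1, 0 and 0 peaks in the first and 1, 0, 0 and 0 in the second, in the order SETa 1, SETa 2, SETb 1 and SETb 2. The 33 regions of SETa alone in these clusters made up most of the 56 such regions on X, and 166 of the 199 remained without them.

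An autosomal cluster with more SETa peaks was chr7:59733439-59896616. It holds Snhg14, the host transcript of the imprinted small nucleolar RNA array, and 45 small nucleolar RNA genes, Snord116 family members among them. It had 28 and 14 peaks in SETa and 8 and 10 in SETb and 0 in every addback library. A second, chr5:14903353-15024445, holds genes of the Speer family, which encode glutamate-rich proteins of the testis, and had 8 and 11 peaks in SETa and 1 and 3 in SETb, again with 0 in every addback library. In both, all SETa counts stood above all SETb counts.

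Other clusters differed less. The chromosome 10 array with Duxf3, a copy of the Dux homeobox gene of the early embryo, had 14 and 15 peaks in SETa and 9 and 13 in SETb, so all SETa counts were above all SETb counts here too. Both SETa folds stood above both SETb folds in 4 of its 7 shared regions and the reverse held in 0. Its control background was at a median of 4.45 to 5.46 times the lowest level. A cluster of 15 transfer RNA genes with Fcgr3 at chr1:171063706-171085529 had 25 and 17 in SETa and 21 and 16 in SETb, and both SETb folds stood above both SETa folds in 3 of its 5 shared regions and the reverse in 0. The cluster with Rn4.5s, the 4.5S RNA gene, had 0 and 11 in SETa and 4 and 13 in SETb, with a control background about 11 times its lowest level. The cluster of the interferon zeta gene Ifnz and its relatives had 3 and 6 in SETa and 5 and 11 in SETb.

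Among the regions of 1 isoform with the highest values, Muc3, a mucin gene, held a SETa region at chr5:137152167-137152525 with folds of 5.03 and 6.84 and the control at its lowest level. A SETa region at chr7:85760238-85760576 lay 5407 bp from Vmn2r72, a pheromone receptor gene, with folds of 3.74 and 3.41. The remaining 2 of the 5 lay in the X clusters without a gene, at chrX:94882164-94882785 and chrX:123051706-123052941. For SETb the first was chr19:61239248-61239494, 6385 bp from the pseudogene Gm4242, with folds of 6.32 and 4.75. The others had lower folds of 3.53 to 4.06, at chr1:171085110-171085529 beside the transfer RNA gene n-TGgcc14, chr4:18427689-18428305, chr14:87677033-87677268 and chr17:53935708-53936312.

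The regions of each isoform differed in how far they coincided with the addback cells. At least 1 addback library had a peak at 127 of the 298 shared regions (42.6%), at 32 of the 199 SETa regions (16.1%) and at 79 of the 192 SETb regions (41.1%). Over all 5477 merged regions the share was 23.4%, and over those found in at least 2 libraries 33.3%. Outside clusters the shares were 40.2%, 18.6% and 38.5%. SETa addback libraries, which hold more peaks, overlapped 25 of the SETa regions and 74 of the SETb regions, and SETb addback libraries overlapped 9 and 21. The SETb regions thus coincided more often with peaks of SETa in SET KO cells than the SETa regions did. The 2 sets are lists of regions from the same 4 libraries, and the difference between them was not tested.

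Few genes had a peak at an end in every library. Of 43950 genes outside the segment 38 (0.0865%) had a peak within 1 kb of a gene end in all 4 libraries, 61 (0.139%) in both SETa libraries and 79 (0.18%) in both SETb libraries. Transfer RNA genes made up 15 of the 38, all in the chromosome 1 cluster and sharing a few peaks. At n-TGtcc4 the fold was 4.04 and 3.65 in SETa and 5.31 and 5.25 in SETb. At Gm40237, the tandem repeat shown above, the fold was 2.84 and 3.29 in SETa and 2.29 and 2.85 in SETb, with −log10 p of 18.4 and 25.3 in SETa and 10.3 and 17.8 in SETb. At LOC108168645 the fold of the region shown was 4.00 and 4.92 in SETa and 4.07 and 3.77 in SETb.

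Protein-coding genes were rarer still. Of 18977, 8 (0.0422%) had a gene-end peak in all 4 libraries, 13 (0.0685%) in both SETa libraries and 31 (0.163%) in both SETb libraries. Those with one in all 4 libraries included Spocd1, Fcgr3, Duxf3, Zfp981, Gm13288, Gm52446 and LOC100504180. Spocd1, a factor of piRNA-guided silencing in the germ line, had folds of 3.91 and 4.17 in SETa and 3.53 and 4.36 in SETb. Duxf3 had 3.36 and 2.76 in SETa and 2.38 and 2.27 in SETb. There both SETa folds stood above both SETb folds. Single libraries had a peak at 19 and 160 coding genes in SETa and at 58 and 331 in SETb, so more genes were reached in replicate 2 of each isoform.

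The replication-dependent histone genes, which are transcribed in S phase and lie mostly in one array on chromosome 13, had more gene-end peaks in SETb. Of 65 such genes 0 and 3 had a gene-end peak in SETa and 16 and 16 in SETb. In both SETb libraries 11 had one, against 0 in both SETa libraries, where 0.18% and 0.139% of all genes did. The groups did not overlap, and no p is given because the family was picked with its values known. Neighbouring genes share peaks, and 0 and 2 peaks in SETa and 9 and 13 in SETb stood behind these counts. The part of the array that formed a cluster, chr13:21715717-21834734, had 1 and 6 peaks of any kind in SETa and 6 and 6 in SETb, so SETa replicate 2 stood level with SETb there. It covered 1.61 kb in that library against 1.45 and 1.51 kb in SETb.

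At H2ac13, whose window is shown above, and at its neighbour H2bc13 the fold of the strongest gene-end peak was 3.32 in SETa replicate 2 and 3.11 and 3.67 in SETb, with no peak in SETa replicate 1. At H2bc14, an H2B gene of the same array, the fold was 3.07 and 3.49 in SETb and neither SETa library had a peak. H2bc23 and H2ac23, a divergent pair, shared a peak with folds of 3.13 and 3.12 in SETb. H3c7, an H3 gene, had 2.85 and 3.05 in SETb. These peaks were weak: the lowest q was 0.129 in SETa replicate 2, 0.59 in SETb replicate 1 and 0.033 in SETb replicate 2. The best histone peak of SETa replicate 2 was a little stronger than that of SETb replicate 1, at a −log10 p of 4.76 against 4.70. With a q of at most 0.05 the counts were 0 and 0 in SETa and 0 and 3 in SETb. With a window of 250 bp they were 0 and 2 in SETa and 8 and 11 in SETb. In the addback cells 45 and 46 of the 65 genes had a peak in SETa and 2 and 13 in SETb, so there SETa had more histone genes. The addback SETb libraries also had fewer peaks in all, 2518 and 9768 against 22176 and 15701 in SETa. Over all 18977 coding genes the addback counts were 6484 and 6016 in SETa and 1575 and 3483 in SETb, so the higher SETa count was not particular to histone genes.

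**Figure D4:**
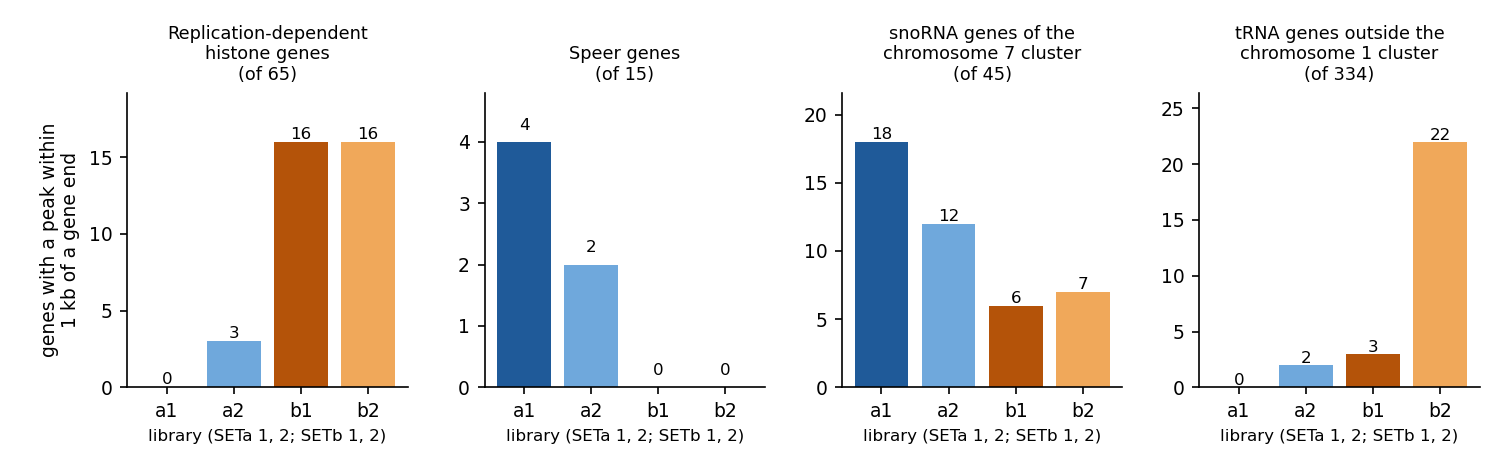
Genes with a peak within 1 kb of a gene end in each library for 4 families, with the number of genes in the family in brackets. Histone genes stand at 0 and 3 in SETa against 16 and 16 in SETb, Speer genes at 4 and 2 against 0 and 0, small nucleolar RNA genes of the chromosome 7 cluster at 18 and 12 against 6 and 7, and transfer RNA genes outside chromosome 1's cluster at 0 and 2 against 3 and 22.

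Speer genes had more gene-end peaks in SETa. Over all 43950 genes 95 and 299 had a gene-end peak in SETa and 115 and 521 in SETb. Of 15 Speer genes 4 and 2 had a gene-end peak in SETa and 0 and 0 in SETb, with Speer8-ps1 at folds of 2.47 and 2.61 and Speer4cos at 2.49 and 2.71. Speer4d and Speer4c had a peak in SETa replicate 1 only, at folds of 1.68 and 1.69. The −log10 p of the Speer peaks was 2.56 to 4.48 in SETa replicate 1 and 4.94 and 5.43 in SETa replicate 2. Of the 45 small nucleolar RNA genes of the chromosome 7 cluster 18 and 12 did in SETa and 6 and 7 in SETb, with 10 in both SETa libraries and 4 in both SETb libraries. That cluster was defined by these same peaks, and over all 1194 small nucleolar RNA genes the counts were 21 and 17 in SETa and 7 and 20 in SETb, so the groups overlapped. The transfer RNA genes outside chromosome 1's cluster, 334 in all, had peaks at 0 and 2 genes in SETa and at 3 and 22 in SETb. In the last family the high count was that of SETb replicate 2 alone. Olfactory receptor genes had 0 in every library among 1319 genes, where 1.8% of all genes had a peak in any library.

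Genes of the stem cell state and of its exit were looked up from lists. Over all genes 1.8% had a gene-end peak in any library, and the counts below stand against that share. Of 24 pluripotency genes 3 (12.5%) had one, each in a single SETb library: Lefty2, a Nodal antagonist, in replicate 2, and Dppa5a and Jarid2 in replicate 1. None of the 24 had a peak in both libraries of an isoform. A further 3 genes of the pluripotency list and 1 of the housekeeping list lie in the chromosome 6 segment and were left out of these counts. Of 25 housekeeping genes 6 (24%) had one in any library, with 1 and 2 in SETa and 2 and 6 in SETb. Among them Atp5b, a subunit of ATP synthase, had a peak in both SETb libraries and SETa replicate 2, at folds of 2.98, 2.72 and 2.89. Of 26 developmental regulators, such as the Hox, Pax and Gata genes of the list, and of 23 genes of histone chaperones and known SET partners 0 had a peak. At the share over all genes lists of this length hold less than 1 such gene, so a count of 0 does not set them apart. Counts this small do not separate the isoforms.

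Multicopy families were counted as well. Among 138 genes of families expressed in the early embryo only Duxf3 (0.725%) had a peak in both libraries of an isoform, and it had one in all 4. Among 199 genes of X and Y families 1 (0.503%) had a peak in both SETa and 3 (1.51%) in both SETb libraries. Erdr1 had a peak in all 4 libraries, and Spin2d and Mid1-ps1 in both SETb libraries and SETa replicate 2. At Erdr1 the fold was 2.49 and 3.25 in SETa and 3.01 and 3.31 in SETb. Of 2767 genes of autosomal families outside the segment, 3 had a peak in both SETa libraries (Zfp981, Speer8-ps1 and Speer4cos), or 0.108% against 0.139% of all genes. In both SETb libraries 12 did, or 0.434% against 0.18%, of which 10 were histone genes named by prefix and the others Zfp981, a zinc finger gene, and Vmn1r48, a pheromone receptor gene.

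The IDR lists were short and about equally long. Outside the segment SETa had 93 peaks and SETb 100. Of the SETa peaks 51 (54.8%, 95% Wilson interval 44.7% to 64.6%) overlapped a SETb peak, and of the SETb peaks 58 (58.0%, 48.2% to 67.2%) overlapped a SETa peak. The intervals cover counting error only and treat neighbouring peaks as separate, and each list pools its replicates. The 42 peaks found in the SETa list alone were mostly not absent from SETb, as 31 overlapped a peak of a SETb library. For the 42 of the SETb list alone 36 overlapped a peak of a SETa library. That left 11 SETa peaks and 6 SETb peaks in no library of the other isoform.

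In these lists X and Y held 46.2% of the SETa peaks and 44.0% of the SETb peaks, with 35 and 28 on X and 8 and 16 on Y. The X cluster with Gm7746 alone held 13 SETa and 17 SETb peaks. Clusters held 45.2% and 43.0%. Shares on X and Y and in clusters also rose when the single-library lists were shortened, to 21.6% to 29.0% on X and Y among the strongest 500 peaks, so lists of different lengths are not compared. Summits within 1 kb of a gene end were 5.38% and 4.00%, and an addback peak coincided with 21.5% of the SETa and 35.0% of the SETb peaks. Many of these peaks are neighbours in a cluster, and each isoform has 1 list, so the shares were not tested against each other.

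The 18 Mb segment of chromosome 6 held the largest difference between the groups, given as a description because its borders were set with these values known. There were 3337 and 4777 peaks in SETa and 49 and 125 in SETb, or 185 and 265 per Mb against 2.72 and 6.94. On the log2 scale the difference was 5.67 (n = 2 per group), given with no p for the same reason. These were 69.4% and 62.2% of all SETa peaks and 3.65% and 4.36% of all SETb peaks. In the 2 Mb before the segment SETa had 2 and 3 peaks and SETb 3 and 5, and in the 2 Mb after it SETa had 1 and 3 and SETb 3 and 17. Within it each Mb held at least 46 SETa peaks, up to 461 and 551. On all the rest of chromosome 6 there were 49 and 124 peaks in SETa and 54 and 139 in SETb. The SETb peaks in the segment were uneven: 27 and 44 of the 49 and 125 lay in the same 1 Mb near its far border, and other Mb of it held 0 in both libraries. The number of copies of the segment in either cell line was not tested, since no input track was used here.

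**Figure D5:**
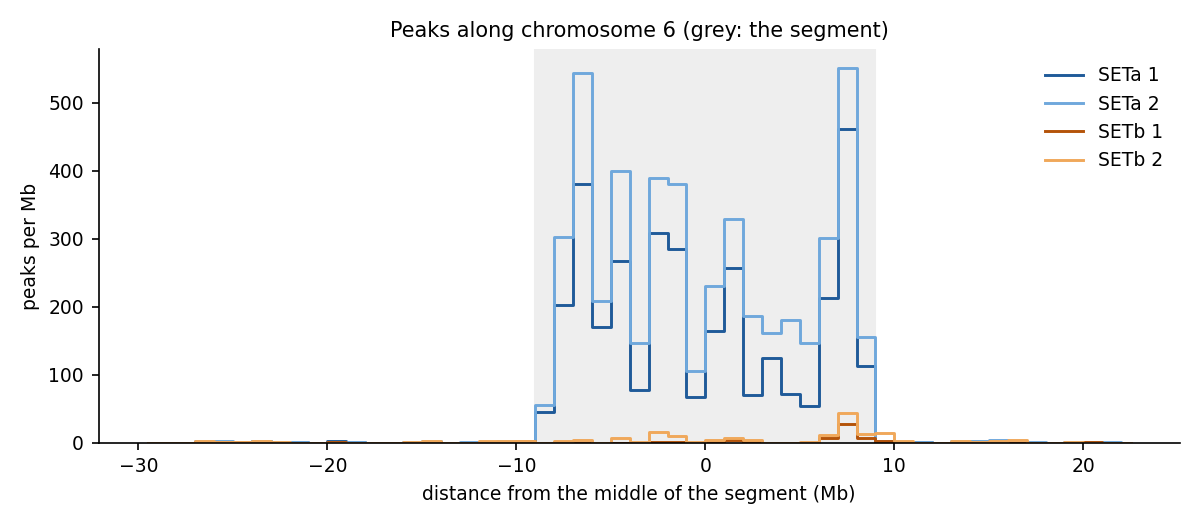
Peaks per Mb along chromosome 6 by distance from the middle of the segment, which is shaded, in each library. Both SETa libraries rise at both borders and reach 461 and 551 in 1 Mb, while the SETb libraries reach 27 and 44 in 1 Mb.

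The segment's SETa peaks were weak. Their median fold was 2.74 and 2.85, and 196 and 1060 of them had a q of at most 0.05. The control background at these summits was at a median of 1.26 times its lowest level, against 1.15 outside the segment. Of its 5955 merged regions 1703 were in both SETa libraries, 1623 of these in no SETb library, and 21 were in all 4. Of its 258 coding genes 156 had a gene-end peak in both SETa libraries and 5 in both SETb libraries. The part of the higher control background in the peaks of the segment was not tested.

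The 3 highest regions of the segment by their lower SETa value were chr6:133959386-133966633, 28800 bp from the pseudogene Gm8956, with folds of 5.30 and 5.66 in SETa and 2.40 and 3.32 in SETb; chr6:130082768-130083357 in Klra11-ps, a pseudogene of the natural killer cell receptor family, with 5.19 and 4.79 in SETa and no peak in SETb; and chr6:133981424-133988663, 32135 bp from Gm46977, with 4.43 and 4.96 in SETa and 2.91 and 2.87 in SETb. The IDR lists held 34 SETa peaks and 1 SETb peak in the segment. With the segment kept in, the share of strongest SETa peaks at gene ends stood 4.65 points above that of SETb and the share on X and Y 6.18 points below it, so both turned in direction.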

How the data were processed

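HA chromatin immunoprecipitation was compared between 2 SETa and 2 SETb libraries, with 4 addback libraries as a reference. Per the submitters' processing notes Bowtie2, MACS2 and deepTools were used with build GRCm38 (mm10); their versions, the control and the handling of reads that match several copies are not given in the sources used here. The authors called peaks per library and deposited for each peak a score, a fold (a linear ratio of signal to local background), a −log10 p and a −log10 q; the highest deposited p was 0.00499. Per the file layout the IDR lists give a score and a −log10 p per peak, with an IDR of at most 0.0498. All values of single peaks are the authors' and describe peaks within a list.

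Regions are peaks of the 4 libraries merged at 1 shared bp, with positions counted from 1. Genes (44475, of which 19235 coding) came from RefSeq GRCm38.p6. Summit fragments and background were recovered by searching whole fragment numbers, with a 200 bp extension and a background step of 0.02, that give the listed fold and p; this was tested on simulated data. The scale of total depth is unknown. Differences over libraries used a two-sided exact permutation test, except for the overlap of replicate and isoform pairs. That test was one-sided, over the 3 ways to divide the libraries in pairs. IDR shares used Wilson intervals of 95%. Python 3.11.15, numpy 2.4.6, pandas 2.3.3 and scipy 1.17.1 were used. Chromosomes 8 and 11 were not analysed here and mitochondrial peaks were left out.

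Named regions were the highest in each class by their lowest −log10 p: 10 for all 4 libraries, 5 for each isoform alone, 3 in the segment, the 5 top IDR peaks, the 5 clusters with most regions, coding genes with a peak in all 4 libraries, and list members with a peak in both libraries of an isoform. Other families and clusters, Gm40237, LOC108168645, n-TGtcc4 and H2bc14 among them, were picked after their values were seen. One gene that this rule names is not reported here. The comparison, the segment and the gene lists were chosen with earlier results of these data known. Alternatives varied the number and ranking of peaks, the q threshold, the excluded region, the overlap, the gene-end window, the cluster rule and the libraries.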

Additional observations from a re-analysis of the deposited data

How the results depend on the processing

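No difference between isoforms could pass a threshold, since 2 against 2 libraries allow an exact permutation p of 0.33 at the least, so keeping a direction says little. With only peaks of q at most 0.05 the X and Y share differed by -1.67 points and the cluster share by -3.76 points, both turned, and the counts were 59 regions in all 4 libraries, 42 in SETa alone, 11 in SETb alone and 14 genes with an end peak in all 4. With nothing left out the gene-end share differed by 4.65 points, the X and Y share by -6.18 points and the median width by 117 bp, all turned, and 1822 regions were in SETa alone. The cluster share turned to -0.27 points when ranked by fold and to -1.32 points without the X clusters that hold no annotated gene, an alternative chosen after seeing the data, as were those for histone genes. A window of 2500 bp gave 62 genes in all 4 libraries. The share of SETb IDR peaks that overlap a SETa IDR peak was 45% when 50% of both peaks had to overlap and 46% for summits within 250 bp.

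Leaving out 1 library at a time gave gene-end differences of -4.37 to 0.811 points, log2 differences in peak number of -0.41 to 0.67 and replicate-minus-isoform overlaps of -0.56 to 9.68 points. The X and Y share then differed by 1.58 to 4.83 points, the cluster share by 1.51 to 2.90 points and the median width by -24.5 to -4 bp. There were 361 to 497 regions in all remaining libraries, 256 to 1790 in SETa alone and 256 to 1613 in SETb alone. The cause of these changes was not tested, beyond the fewer libraries that a region must be found in or missing from.

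Replicate numbers are shared by the groups, but the folds of same-numbered libraries did not deviate together (Pearson r -0.056 over 298 regions, across regions that are not independent). Peak number, ChIP fragments per control fragment and width did move the same way with the number in both isoforms. The labels give no shared origin, so the libraries were not treated as pairs. With the replicate block the differences stay the same and the exact permutation p was 0.5, the least possible with 4 arrangements, for peak number (0.13 log2), the X and Y share (3.21 points), the cluster share (2.20 points) and the width (-14.2 bp), and 1 for the gene-end share (-1.78 points).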
